A study of Rattus norvegicus with 10 samples.

Results

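The acyl-CoA thioesterases Acot1, Acot2, Acot3, Acot4, Acot8 and Acot12 and the medium-chain acyl-CoA synthetases Acsm2, Acsm3 and Acsm5 were read from liver arrays of rats fed an iron-deficient diet and of pair-fed rats. All 9 genes were measured, by 12 probe sets that the platform annotation pairs with them, out of 31042 probe sets tested, which name 14863 genes. Acot2 had 3 probe sets of its own, 1 further probe set was shared between Acot1 and Acot2, and every other gene had 1. Several of these genes were already known to be lower in these samples when the set was chosen. The number of members called lower and their median change are therefore not independent evidence of the direction.

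The iron-deficient group was 5 male Sprague-Dawley rats, labelled as 5 weeks old, while the text of the study gives a younger age, that ate freely a diet with about 3 ppm iron for 3 days. The pair-fed group was 5 rats of the same sex, strain and age on the same base diet with 48 ppm iron as ferric citrate, given in amounts matched to the iron-deficient rats. The methods of the study also state that feeding was held to set daytime hours until the day before the rats were killed. Livers were taken 1.5 h after feeding, each rat has its own Affymetrix array, and values are log2 signals of the robust multiarray average (RMA). The pair-fed samples were grouped by their titles and treatment labels, which give the control diet, although their source label gives the iron-deficient one.

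Fatty acids enter metabolism as thioesters of coenzyme A, and the acyl-CoA synthetases make these thioesters at the cost of ATP. The acyl-CoA thioesterases cut them again and set free the fatty acid and coenzyme A. The ACSM enzymes act in mitochondria on medium-chain fatty acids and on aromatic acids such as benzoate, while the ACOT enzymes are spread over the cytosol, mitochondria and peroxisomes. In rodent liver the genes of the Acot1 cluster are known to be induced by fasting and by ligands of PPAR-alpha, the nuclear receptor that governs fatty acid oxidation.

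All 12 member probe sets had a lower mean in the iron-deficient group, where 48.6% of all probe sets did. The rank products method of the study ranks each probe set by its difference in all pairs of arrays from opposite diets, and a probe set was called at a false discovery rate (FDR) under 0.05. It called 5 of the 12 lower, those of Acot3, Acot4, Acsm2, Acsm3 and Acsm5, against 0.561% of all probe sets, and 0 of the 12 higher, against 0.303%. When ranks were summed and not multiplied, 0 of the 12 were called, so that each of the 5 calls ended. The share of all probe sets called by summed ranks was not counted, so this 0 has no background beside it. The median log2 fold change (iron-deficient minus pair-fed) was -0.36 over the 12 and 0.00 over all probe sets, and the members ranged from -0.58 to -0.12. In limma, where the difference is set against its variance over the rats, 0 of the 12 passed an adjusted p under 0.05, as did 0% of all probe sets, and the lowest adjusted p among the members was 0.644. At an unadjusted p under 0.05 limma had 4 of the 12 lower, Acot3, Acot4, Acot12 and Acsm3, against 3.77% of all probe sets. The groups overlapped at every member: 0 of the 12 had all iron-deficient arrays below all pair-fed arrays, against 0.799% of all probe sets. Leaving out iron-deficient replicate 5 gave the lowest number of members called lower by rank products, 2, and leaving out iron-deficient replicate 1 the highest, 7. The number was 3 without iron-deficient replicate 3 and 3 without any 1 of the 5 pair-fed replicates. The share of all probe sets called was not counted in these settings, so a change over the whole array cannot be told from one of the members.

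**Figure D1:**
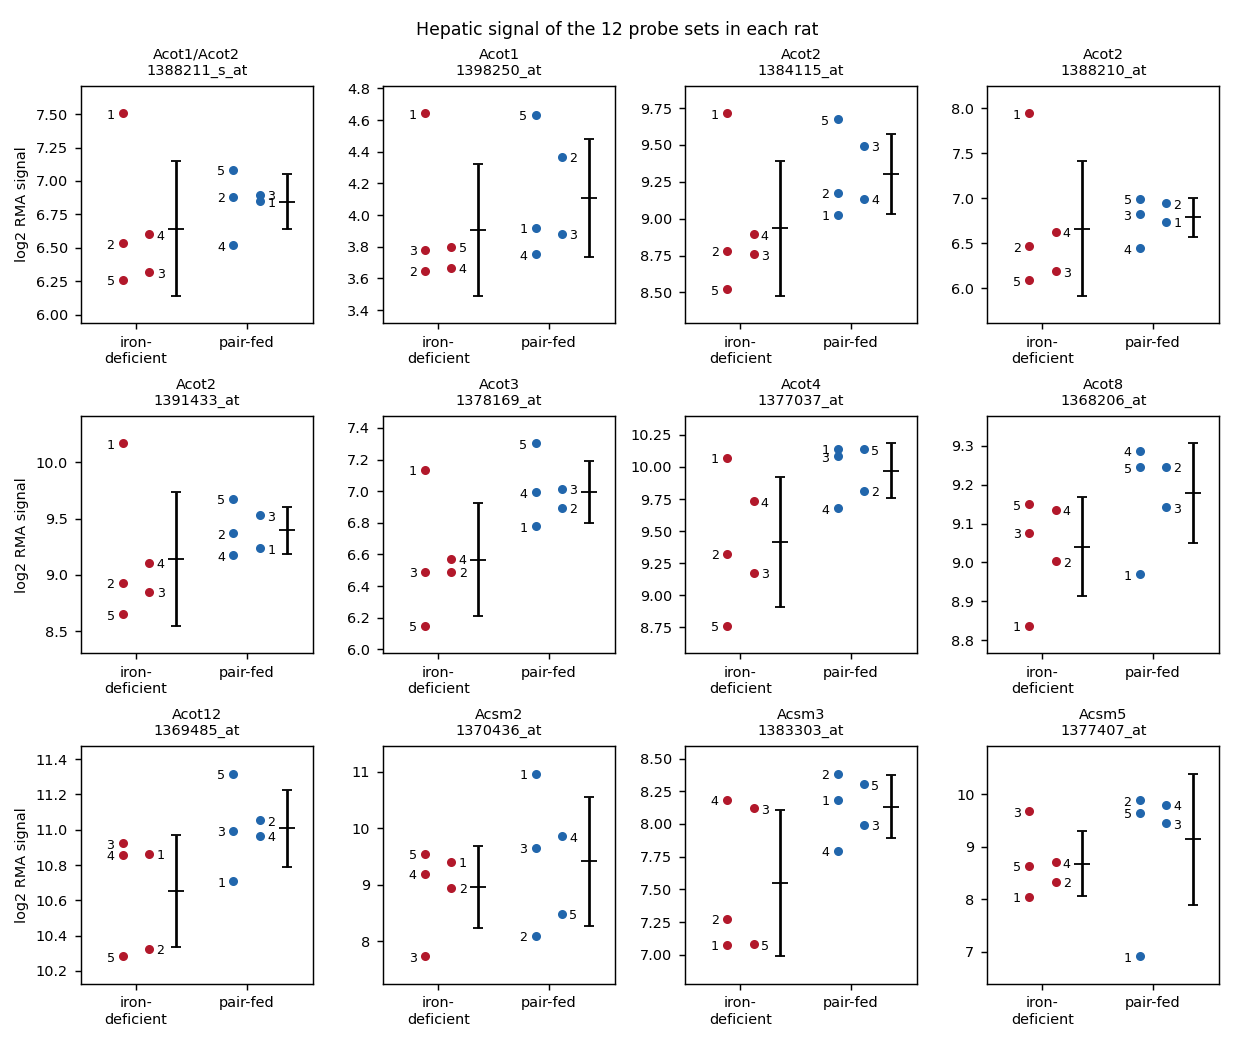
The log2 RMA signal of each of the 12 probe sets is plotted for the iron-deficient (red) and pair-fed (blue) rats, with the replicate number beside each point and the mean and SD (n = 5) as a black bar. Iron-deficient replicate 1 is the highest of its group at all 7 probe sets of Acot1 to Acot4, and pair-fed replicate 1 is at 6.91 for Acsm5 and 10.97 for Acsm2.

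The arrays were alike in level, with medians of 6.19 to 6.22 on the log2 scale. Iron-deficient replicate 1 stood apart: its mean correlation with the other arrays was 0.9915, against 0.9935 to 0.9941 for the rest. It also had the widest 3' minus 5' difference of the RNA quality controls, 0.36 for GAPDH and 1.74 for beta-actin, against -0.03 to 0.11 and 1.16 to 1.32 in the other iron-deficient arrays and -0.05 to 0.09 and 1.08 to 1.33 in the pair-fed arrays. Of the hepatocyte markers 9 of 10 were measured, and their summed signal was 17.63 to 17.67 (log2) in iron-deficient and 17.62 to 17.68 in pair-fed livers. All 7 measured of 10 red cell markers were called lower by rank products, and their summed signal was 13.34 to 14.14 in iron-deficient and 13.92 to 14.62 in pair-fed livers, which differed by -0.77 (p = 0.0159 in a 2-sided exact permutation test, 0.0357 after adjustment over the 9 marker lists). The summed signal of the other lists differed by -0.23 for adipocytes, 0.14 for the kidney tubule and 0.12 for liver endothelium (adjusted p = 0.0357 for each, by the same exact test). The adipocyte value came from 1 gene, Cidec, at 10.69 ± 0.07 in iron-deficient and 10.93 ± 0.07 in pair-fed livers (SD, n = 5 each, log2 fold change -0.24), while Adipoq, Plin1 and Lep were dim and at -0.02 to 0.07. In the kidney list Lrp2 was at 0.31 and the other 3 genes at 0.02 to 0.10. It differed by 0.27 for stellate cells (adjusted p = 0.0714 in that exact test), and for the remaining lists the adjusted p was 0.250 or higher. The part of these shifts in the values below was not tested. In whole liver, fewer cells of a type and less RNA per cell cannot be told apart.

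In the RefSeq gene table, Acot2, Acot1, Acot4, Acot3, Acot5 and Acot6 lie in this order on chromosome 6 of the rat, with 1 other protein-coding gene among them, and Acsm5, Acsm2, Acsm1, Acsm4 and Acsm3 lie near each other on chromosome 1. Acot8 and Acot12 lie elsewhere. The promoters of the 5 genes called lower are shown, among them the neighbours Acot4 and Acot3 and the neighbours Acsm5 and Acsm2. Each is the 250 bases before the gene's start from the RefSeq table (build GRCr8), 5′ to 3′. Capitals mark the half-site AGGTCA, read on the other strand as TGACCT, of which PPAR-alpha and other nuclear receptors bind pairs, and the TATA motif TATAAA, read on the other strand as TTTATA.
Acot4 (chr6:109399604-109399853, + strand): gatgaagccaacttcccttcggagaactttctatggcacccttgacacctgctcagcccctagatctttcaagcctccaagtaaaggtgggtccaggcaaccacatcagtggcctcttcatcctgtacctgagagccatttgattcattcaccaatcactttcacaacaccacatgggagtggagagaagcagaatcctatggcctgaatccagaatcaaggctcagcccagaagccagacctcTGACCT
Acot3 (chr6:109413447-109413696, + strand): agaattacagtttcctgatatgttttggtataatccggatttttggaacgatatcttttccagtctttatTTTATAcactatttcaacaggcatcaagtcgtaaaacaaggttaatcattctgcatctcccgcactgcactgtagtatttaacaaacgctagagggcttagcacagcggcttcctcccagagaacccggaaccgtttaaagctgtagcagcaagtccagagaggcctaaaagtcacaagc
Acsm2 (chr1:183347455-183347704, + strand): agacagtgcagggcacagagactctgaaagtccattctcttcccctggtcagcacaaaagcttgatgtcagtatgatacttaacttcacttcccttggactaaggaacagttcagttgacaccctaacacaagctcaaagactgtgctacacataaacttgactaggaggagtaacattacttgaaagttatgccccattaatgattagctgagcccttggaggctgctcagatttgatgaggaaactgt
Acsm5 (chr1:183302259-183302508, + strand): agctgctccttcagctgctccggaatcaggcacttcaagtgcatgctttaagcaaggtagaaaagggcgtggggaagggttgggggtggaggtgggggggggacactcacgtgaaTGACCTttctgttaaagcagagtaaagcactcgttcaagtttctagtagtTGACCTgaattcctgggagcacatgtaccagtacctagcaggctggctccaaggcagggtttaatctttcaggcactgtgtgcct
Acsm3 (chr1:183564402-183564651, + strand): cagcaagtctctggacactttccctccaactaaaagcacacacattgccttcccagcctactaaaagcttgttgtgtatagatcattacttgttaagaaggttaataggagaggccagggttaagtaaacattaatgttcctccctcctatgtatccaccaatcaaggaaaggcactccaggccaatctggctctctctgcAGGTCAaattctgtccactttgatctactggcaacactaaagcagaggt

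All 9 members matched an entry of the promoter table. The half-site was found in 5 of the 9 promoters, those of Acot4, Acot8, Acot12, Acsm3 and Acsm5, and in 14.1% of the 33469 promoters of the table. The full direct repeat of PPAR-alpha, 2 copies of the half-site with any 1 base between them and searched on both strands, was in 0 of the 9 and in 0.0508% of all promoters. The TATA motif was in 1 of the 9, Acot3, and in 12.9% of all. In Acot3 it was read on the other strand, at position -180 from the gene's start. The searches for the half-site alone and for the TATA motif were added after 0 members held the full repeat, and the half-site is also a part of that repeat. Within these 250 bases Acsm5 had 2 half-sites and Acsm2 had 0.

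Among the peroxisomal thioesterases, Acot4, which in the mouse acts on succinyl-CoA and other dicarboxylic acyl-CoAs, was lower in the iron-deficient livers. Its signal was 10.07, 9.32, 9.18, 9.73 and 8.76 in iron-deficient replicates 1 to 5, against 10.14, 9.82, 10.08, 9.68 and 10.14 in pair-fed replicates 1 to 5. Iron-deficient replicates 2, 3 and 5 lay below every pair-fed rat, and replicates 1 and 4 lay among them. The means were 9.41 ± 0.51 in iron-deficient and 9.97 ± 0.21 in pair-fed rats (SD, n = 5 each), a log2 fold change of -0.56 (SE 0.203, 95% interval -1.0 to -0.12) or 67.9% of the pair-fed level. The FDR was 0.0129 by rank products, and limma gave adjusted p = 0.653. The call was lost without iron-deficient replicate 5 (log2 fold change -0.40), without pair-fed replicate 1 (-0.52) and without pair-fed replicate 5 (-0.52).

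Acot3, a further peroxisomal thioesterase of the cluster that acts on longer acyl-CoAs in the mouse, was lower too. The platform annotation used here pairs its probe set with Acot3 alone, whereas the gene names given by the study for that probe set are Acot3 and Acot4. Signals were 7.13, 6.49, 6.49, 6.57 and 6.15 in the iron-deficient rats, against 6.78, 6.89, 7.02, 6.99 and 7.30 in the pair-fed rats, each in the order of the replicates. Apart from iron-deficient replicate 1, which was second only to pair-fed replicate 5, the iron-deficient rats lay below all pair-fed rats. The means were 6.57 ± 0.36 in iron-deficient and 7.0 ± 0.20 in pair-fed rats (SD, n = 5 each), a log2 fold change of -0.43 (SE 0.154, 95% interval -0.76 to -0.09). The FDR was 0.0414, near the threshold, and limma gave adjusted p = 0.644. Of the 10 settings that leave out 1 array, Acot3 passed in 2, without iron-deficient replicate 1 (FDR 0.00696) and without pair-fed replicate 1 (FDR 0.0476), and the FDR was 0.0513 to 0.202 in the others. With dim probe sets left out, and with only same-numbered arrays compared, it did not pass.

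Acot8, the peroxisomal thioesterase of broad chain length that lies outside the cluster, was not called. It was at 8.84, 9.00, 9.08, 9.14 and 9.15 in iron-deficient and at 8.97, 9.25, 9.14, 9.29 and 9.24 in pair-fed rats, and the lowest rat of each group was its replicate 1. All 5 iron-deficient rats lay below the pair-fed median of 9.24. The log2 fold change was -0.14 (SE 0.0817, 95% interval -0.32 to 0.04), and Acot8 did not pass (FDR 0.982, limma adjusted p = 0.775). Unlike at the cluster genes, the value came closer to 0 without iron-deficient replicate 1, at -0.09.

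Acot2 makes the mitochondrial long-chain thioesterase. Its brightest probe set was at 10.17, 8.93, 8.85, 9.11 and 8.65 in the iron-deficient rats, against 9.23, 9.37, 9.53, 9.17 and 9.67 in the pair-fed rats. Iron-deficient replicate 1 held the highest value of all 10 rats and the other iron-deficient rats held the 4 lowest. The means, 9.14 ± 0.60 and 9.40 ± 0.21 (SD, n = 5 each, iron-deficient and pair-fed), gave a log2 fold change of -0.25 (SE 0.232, 95% interval -0.76 to 0.25), which did not pass (FDR 0.110, limma adjusted p = 0.855).

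The next brightest probe set of Acot2 showed the same order, with 9.72, 8.78, 8.76, 8.89 and 8.52 in the iron-deficient and 9.03, 9.18, 9.49, 9.14 and 9.67 in the pair-fed rats, and a log2 fold change of -0.37 (SE 0.197, FDR 0.0623). At the dimmest of its probe sets the log2 fold change was -0.12 (SE 0.284, FDR 0.212), with 7.95 in iron-deficient replicate 1, 6.09 to 6.63 in the other iron-deficient rats and 6.45 to 7.0 in the pair-fed rats. None of the 3 passed. Without iron-deficient replicate 1 all 3 were called lower, at -0.51 for the brightest (FDR 0.0170), -0.56 for the next (FDR 0.00917) and -0.45 for the dimmest (FDR 0.0480). Leaving out iron-deficient replicate 5 instead gave -0.13 for the brightest and 0.019 for the dimmest, and neither was called.

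Acot1, the cytosolic long-chain thioesterase next to Acot2, was dim at its own probe set. Signals were 4.64, 3.65, 3.78, 3.67 and 3.80 in iron-deficient and 3.92, 4.37, 3.88, 3.75 and 4.63 in pair-fed rats, so that iron-deficient replicate 1 again stood above its group. The log2 fold change was -0.20 (SE 0.207, FDR 0.415, limma adjusted p = 0.871). It moved to -0.39 when iron-deficient replicate 1 was left out. The probe set shared by Acot1 and Acot2 was at 7.51 in iron-deficient replicate 1, at 6.26 to 6.60 in the others of that group and at 6.52 to 7.08 in the pair-fed rats, a log2 fold change of -0.20 (SE 0.201, FDR 0.250). Leaving out iron-deficient replicate 1 moved it to -0.42 (FDR 0.0623), and leaving out replicate 5 of that group moved it to -0.10. It passed with none of the 10 arrays left out.

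Seen over the cluster, iron-deficient replicate 1 was the highest of its group at 7 of 7 probe sets of Acot1 to Acot4, where 25% of all probe sets had this array highest among the 5. Iron-deficient replicate 5 was the lowest of its group at 6 of these 7, where 17.3% of all probe sets had this array lowest. Several of the 7 probe sets read the same gene, Acot2. Without iron-deficient replicate 1 the groups did not overlap at 3 of the 12 member probe sets, the 2 brighter ones of Acot2 and that of Acot3, against 1.4% of all probe sets. At Acot3 the remaining 4 iron-deficient rats lay at 6.15 to 6.57 and the pair-fed rats at 6.78 to 7.30, a log2 fold change of -0.57 (SE 0.114) with an adjusted p = 0.530 in limma. Acot4 was then at -0.72 (SE 0.171). These values were computed after the array had been seen to stand apart. Leaving out the highest array of the lower group by itself reduces overlap. The 1.4% is over all probe sets, of which 25% had this array highest. The part of RNA quality in its values was not tested.

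**Figure D2:**
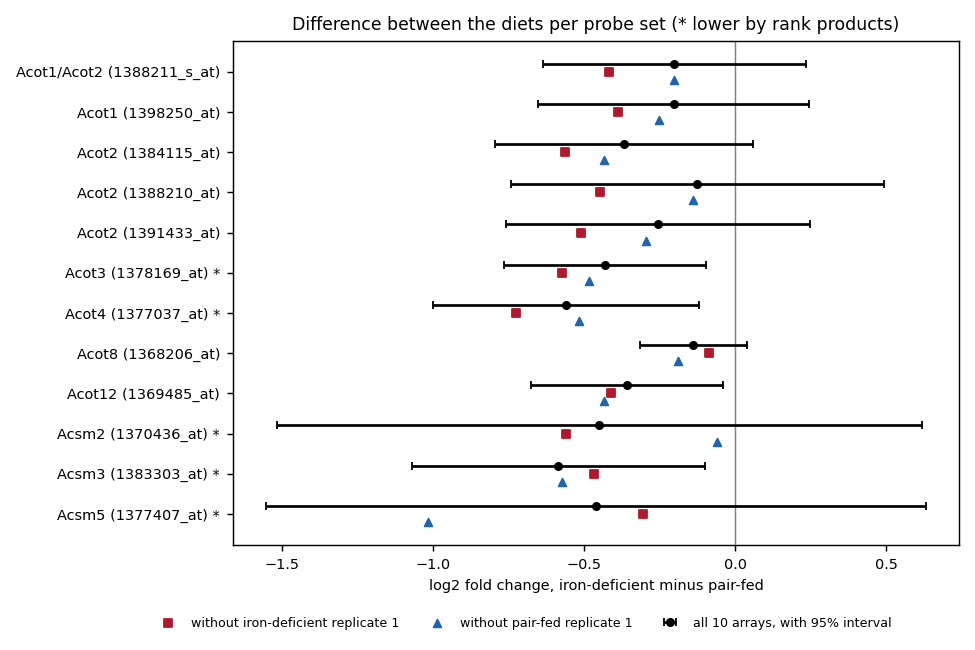
For each member probe set the log2 fold change (iron-deficient minus pair-fed) is plotted with its 95% interval from limma for all 10 arrays (black), without iron-deficient replicate 1 (red squares) and without pair-fed replicate 1 (blue triangles). All plotted fold changes are below 0, but the 95% interval lies wholly below 0 only for Acot3, Acot4, Acot12 and Acsm3. Without pair-fed replicate 1 Acsm2 lies at -0.06 and Acsm5 at -1.02.

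Acot12, the cytosolic acetyl-CoA hydrolase, lies outside the cluster and did not share the high value of iron-deficient replicate 1. It was at 10.86, 10.33, 10.92, 10.86 and 10.28 in the iron-deficient and at 10.71, 11.05, 10.99, 10.97 and 11.32 in the pair-fed rats. All 5 iron-deficient rats lay below 4 of the pair-fed rats, and pair-fed replicate 1 lay among the iron-deficient ones. The means of 10.65 ± 0.32 in iron-deficient and 11.01 ± 0.22 in pair-fed rats (SD, n = 5 each) gave a log2 fold change of -0.36 (SE 0.147, 95% interval -0.68 to -0.04). It did not pass the rank products (FDR 0.167), and limma had adjusted p = 0.673. Without pair-fed replicate 1 the groups did not overlap, at a log2 fold change of -0.43, and it still did not pass (FDR 0.136).

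Of the medium-chain synthetases, Acsm3, first known in rats as the SA gene of hypertensive strains, had the largest mean difference of the members. It was at 7.08, 7.28, 8.12, 8.18 and 7.08 in the iron-deficient and at 8.18, 8.39, 7.99, 7.79 and 8.30 in the pair-fed rats. Iron-deficient replicates 1, 2 and 5 lay below every pair-fed rat, while replicates 3 and 4 lay within the pair-fed range. The means were 7.55 ± 0.56 in iron-deficient and 8.13 ± 0.24 in pair-fed rats (SD, n = 5 each), a log2 fold change of -0.58 (SE 0.224, 95% interval -1.07 to -0.10) or 66.7% of the pair-fed level. The FDR was 0.0109, and limma gave adjusted p = 0.662. It was not called without iron-deficient replicate 1 (-0.47), iron-deficient replicate 5 (-0.47) or pair-fed replicate 2 (-0.52).

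Acsm5, also a mitochondrial enzyme of this family, was called lower with an FDR of 0.00205. Signals were 8.05, 8.33, 9.67, 8.70 and 8.63 in the iron-deficient rats, against 6.91, 9.88, 9.44, 9.80 and 9.65 in the pair-fed rats. Pair-fed replicate 1 held the lowest value of all 10 rats, and 4 of the 5 iron-deficient rats lay below the other 4 pair-fed rats. The means of 8.68 ± 0.61 in iron-deficient and 9.14 ± 1.25 in pair-fed rats (SD, n = 5 each) gave a log2 fold change of -0.46 (SE 0.504, 95% interval -1.55 to 0.63), less than the spread between rats (limma adjusted p = 0.882). Acsm5 passed the rank products in all 10 settings that leave out 1 array, the 1 member of which this held, but its size moved. Leaving out pair-fed replicate 1 moved it to -1.02 (SE 0.258), replicate 2 of that group to -0.27 and replicate 4 to -0.29. Leaving out iron-deficient replicate 3 moved it to -0.71, and replicate 1 of that group to -0.30.

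Acsm2, whose product takes medium-chain and aromatic acids, varied as widely, in some rats in the opposite sense to Acsm5. It was at 9.41, 8.94, 7.73, 9.19 and 9.55 in the iron-deficient and at 10.97, 8.09, 9.66, 9.86 and 8.48 in the pair-fed rats. Pair-fed replicate 1, lowest for Acsm5, was the highest rat for Acsm2, and iron-deficient replicate 3, highest of its group for Acsm5, was the lowest rat for Acsm2. The means were 8.96 ± 0.73 in iron-deficient and 9.41 ± 1.15 in pair-fed rats (SD, n = 5 each), a log2 fold change of -0.45 (SE 0.491, 95% interval -1.51 to 0.62, FDR 0.0162, limma adjusted p = 0.882). Only pair-fed replicates 1, 3 and 4 lay above all iron-deficient rats. The call was lost without iron-deficient replicate 3 (-0.14) and without pair-fed replicates 1, 3 and 4 (-0.06, -0.39 and -0.34). The value was -0.78 and -0.68, and still called, without pair-fed replicates 2 and 5.

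Members were compared between rats after the mean of each group had been taken off, for all 36 pairs of the 9 genes, each by its brightest probe set of its own. No pair passed after adjustment over the 36 (exact permutation within groups, 2-sided), and 20 of the 36 correlations were positive. The highest was that of Acot2 with Acot3, over the 10 rats (Pearson's r = 0.93, exact p = 0.00181, adjusted 0.0650; Spearman's rho = 0.73, exact p = 0.0206, adjusted 0.350). It was 0.75 without the 2 rats farthest from the median of Acot2. Acot2 with Acot4 had r = 0.85 (exact p = 0.00417, adjusted 0.0750) and rho = 0.77 (exact p = 0.0149, adjusted 0.350), with r = 0.59 without the 2 farthest rats. Acsm2 with Acsm5 had r = -0.80 (exact p = 0.0116, adjusted 0.139) and rho = -0.67 (exact p = 0.0389, adjusted 0.350), with r = -0.75 without the 2 farthest rats. Without pair-fed replicate 1, 1 pair passed by Pearson's r, Acot2 with Acot4 (r = 0.90, exact p = 0.000347, adjusted 0.0125). By Spearman's rho that pair did not pass (rho = 0.92, exact p = 0.00243, adjusted 0.0875). In the same setting r of Acsm2 with Acsm5 was -0.66 (exact p = 0.0611, adjusted 0.293) and, with the 2 farthest of the remaining rats left out too, 0.04. Without iron-deficient replicate 1, 0 pairs passed: r was 0.83 for Acot2 with Acot3, 0.77 for Acot2 with Acot4 and -0.79 for Acsm2 with Acsm5 (adjusted p = 0.194 for each in the same exact test). The neighbours Acot3 and Acot4 had r = 0.79 over all 10 rats (exact p = 0.0288, adjusted 0.148) and rho = 0.58 (exact p = 0.115, adjusted 0.442), with r = 0.25 without the 2 farthest rats. The Acot pairs share 1 cluster of related sequences, and cross-hybridization between their probe sets was not tested.

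**Figure D3:**
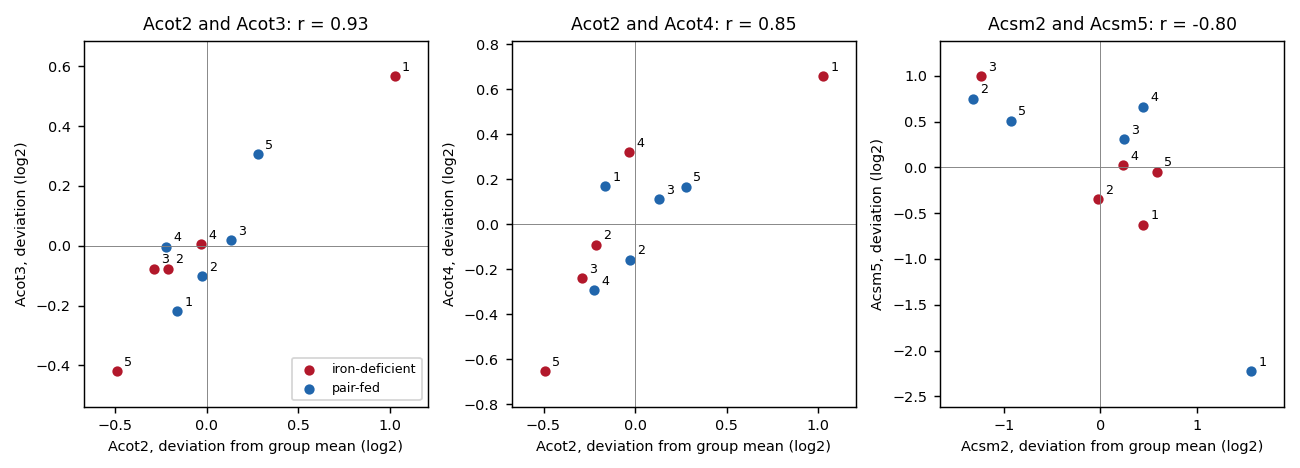
Each point is 1 of the 10 rats, iron-deficient in red and pair-fed in blue with its replicate number, at its deviation from the mean of its group (log2) for Acot2 and Acot3, Acot2 and Acot4, and Acsm2 and Acsm5. Iron-deficient replicate 1 lies at the upper right for both Acot pairs, and pair-fed replicate 1 at the lower right for Acsm2 and Acsm5.

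Relatives of the members outside the list were read for comparison. Of 14 further thioesterase and related genes 8 were measured, 0 were called in either direction, and 7 had lower means. Their log2 fold changes had a median of -0.06. Among them Acot13, Acot9 and Acot7 were at -0.16 (SE 0.118), -0.12 (SE 0.0629) and -0.05 (SE 0.0674). Of 17 other acyl-CoA synthetases 16 were measured, 0 were called, and 6 had lower means with a median of 0.08. Acsm1, the butyrate-preferring synthetase that lies between Acsm2 and Acsm3, was at -0.06 (SE 0.0601), and the long-chain synthetase Acsl1 at -0.01.

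Among 12 measured genes of acyl-CoA binding and conjugation, 2 were called lower and 0 higher, with 10 lower means and a median of -0.18. These were Acbd6, an acyl-CoA binding protein, at 8.27 ± 0.23 in iron-deficient and 8.80 ± 0.28 in pair-fed rats (SD, n = 5 each, log2 fold change -0.53, SE 0.140) and Crat, carnitine acetyltransferase, at 8.65 ± 0.31 and 9.12 ± 0.21 in the same order (-0.46, SE 0.141). Of 14 genes of coenzyme A synthesis and breakdown, 1 was called lower and 0 higher, Vnn1, the pantetheinase, at -0.69 (SE 0.175), with 10 lower means and a median of -0.06. The call of Vnn1 held in all 10 settings that leave out 1 array, that of Acbd6 in 6 and that of Crat in 4. In the binding and conjugation list 0 genes were called without iron-deficient replicate 5, pair-fed replicate 2 or pair-fed replicate 5, and 1 without iron-deficient replicate 2 or pair-fed replicate 1, 3 or 4.

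Of 17 measured genes among PPAR-alpha and its targets, 4 were called lower and 0 higher, with 11 lower means. Ech1 and Eci1, auxiliary enzymes of fatty acid oxidation, were at -0.55 (SE 0.201) and -0.50 (SE 0.199), Cyp4a3, a fatty acid omega-hydroxylase, at -0.45 (SE 0.205) and the hormone Fgf21 at -0.37 (SE 0.480). The median was -0.07, and -0.22 without iron-deficient replicate 1, which was the highest of its group at 11 of the 17. With 1 array left out, each of the 4 calls held in 3 or 4 of the 10 settings. Over all 17 genes, the number called lower was 0 without iron-deficient replicate 2 or 5 and without pair-fed replicate 3 or 4. It was 1 without pair-fed replicate 2 or 5. Over these 5 lists limma called 0 genes, with a lowest adjusted p of 0.601. The lists were drawn up with earlier results of these data known, and the study had named several of their genes.

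**Figure D4:**
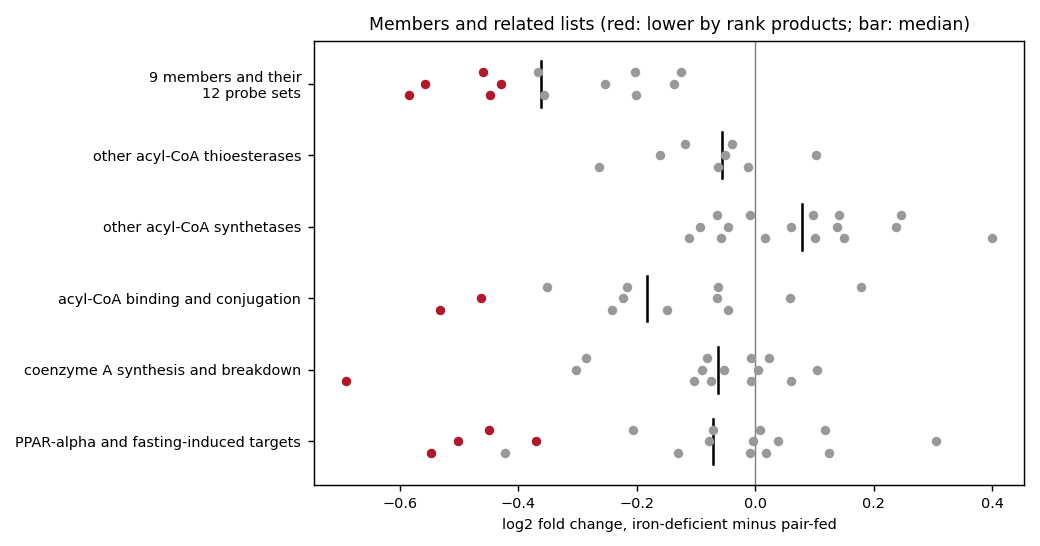
The log2 fold change (iron-deficient minus pair-fed) is plotted for the 12 member probe sets and for 1 probe set per gene of 5 related lists, in red where rank products called it lower, with a bar at the median of each row. The members' median of -0.36, in which Acot2 counts more than once, lies below those of the lists, which run from -0.18 to 0.08. The members were chosen with earlier results of these data known, so this order is not independent evidence.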

How the data were processed

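Hepatic RNA of 10 rats, 5 per diet, was hybridized to 1 Affymetrix Rat Genome array each. The authors made the deposited log2 values from the CEL files by RMA in R and Bioconductor, and these were analysed as deposited, without further normalization. The 10 columns were all used, and 0 were left out. After 57 control probe sets were set aside, 31042 remained. The annotation gives 1 gene for 20826 of them, several for 436 and no gene for 9780. Symbols were updated by Entrez ID through the RefSeq table of GRCr8.

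Rank products over the 25 pairs of arrays, with 100 permutations within arrays, were computed in Python 3.11.15 (numpy 2.4.6, pandas 2.3.3, scipy 1.17.1), with an FDR under 0.05 as threshold. limma 3.58.1, run in R 4.3.3 with diet as the term, gave fold changes, standard errors, 95% intervals and p-values, adjusted by Benjamini-Hochberg over every probe set tested. Both were run on simulated arrays with known changes. There, recovery by rank products was required only at changes larger than those of the members, and no rate is given here for changes of the members' size. Figures were drawn with matplotlib 3.10.9. The smallest p of an exact test of 5 against 5 is 0.00794. Every probe set of the members is named, and of each further list up to 4 genes past the rank products with the largest change, beside relatives of the members chosen after their values were seen. The brightest probe set stands for a gene. The members and lists were chosen with earlier results of these data known. Alternatives were the rank sum, limma calls, a filter on dim probe sets, centred arrays, the replicate block, the mean over probe sets and leaving out each array. The number of arrays limits the precision. Protein sequences were not used here.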

Additional observations from a re-analysis of the deposited data

Results flagged for a closer look

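Of the 12 member probe sets in each of the 2 groups, 3 values lay so far from the rest of their group that the gap to the nearest rat took up over 0.71 of the group's range. Chance flags about 1 in 20 groups, and over all probe sets 6.49% had such a value in the iron-deficient and 5.88% in the pair-fed group. Iron-deficient replicate 1 was high at the probe set shared by Acot1 and Acot2, at 7.51 with a gap of 0.726 of the range. It was high at that of Acot1 as well, at 4.64 with a gap of 0.847 of the range. Pair-fed replicate 1 was low at Acsm5, at 6.91 with a gap of 0.851 of the range.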

How the results depend on the processing

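The number of members called lower, 5, was 0 with the rank sum, 0 by limma, 4 with dim probe sets left out and 5 with the arrays centred again, and 2 to 7 when 1 array was left out. No member was called higher in any setting. The share of all probe sets called by rank products was counted only with ranks multiplied and no array left out. At an unadjusted p limma had 4 members, and 2 to 8 without 1 array. The groups did not overlap at 0 members, and at 0 to 3 without 1 array, an alternative chosen after seeing the data. With the replicate block, rank products over the same-numbered pairs called 4 members lower and 0 higher, and limma had 0 at an adjusted and 3 at an unadjusted p. With the mean of each group taken off, same-numbered arrays of opposite diets had correlations of -0.04 to 0.09. Of these, 1 of 5 correlated best with its own number, so that the numbers were not taken as pairs. A single direction turned, that of the dimmest Acot2 probe set, which ranged between -0.45 and 0.019 over the settings without 1 array, the upper value when iron-deficient replicate 5 was left out. The lists of binding and conjugation and of PPAR-alpha targets had 0 to 3 and 0 to 4 genes called lower without 1 array. Pairs of members that passed by Pearson's r were 0 to 1. Fold changes of the members kept their sign in every other setting run.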
